A study of Rattus norvegicus with 8 samples.

Results

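The predicted miRNAs of rat bone around titanium implants that were well covered by reads were described in 8 small RNA libraries. Members were the predicted rows, named with novmiR in the deposited table, whose mean over the 8 libraries was at least 1000 RPM (reads per 1000000 of the predicted class). Rows with identical values in all 8 libraries were counted once. This gave 66 distinct profiles from 75 rows, out of 319 distinct profiles from 370 predicted rows and 974 rows in all. The members were chosen by their mean over all libraries, so their high level is not a result. The difference between the groups did not enter the rule. The 3 members just inside the minimum had means of 1131, 1036 and 1002 RPM, and the 3 profiles just outside it 993, 950 and 918 RPM.

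The 4 hyperlipidemic libraries came from male Wistar rats given a high-fat diet for 8 weeks, and the 4 normal libraries from male Wistar rats given a normal diet for as long. Each femoral shaft of every rat, on either diet, held a titanium implant. The bone came from a margin of 1 mm around it, freed of muscle, 10 days after the operation at an age of 12 to 13 weeks. No unimplanted bone and no blood lipid value is among the data used here. Nothing in the labels says that the libraries of a group came from separate animals, so that the p-values measure the spread between these libraries. In such bulk tissue, fewer cells of a type and less RNA per cell cannot be told apart.

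A miRNA is cut from an RNA hairpin, first in the nucleus by Drosha and then in the cytoplasm by Dicer, which leaves a short duplex of a 5p and a 3p strand. 1 strand is usually kept by an Argonaute protein and the other decays, and bases 2 to 8 of the kept strand, the seed, pair with target transcripts. Programs that predict new miRNAs from small RNA reads look for read stacks on stretches of genome that can fold into such a hairpin. A prediction is a candidate, and no target or function is known from its name. The sequences and hairpin positions of the predicted miRNAs are not part of the data used here, so that none is printed.

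Each library's predicted values rested on 115473 to 144051 reads in hyperlipidemic and on 60075 to 135400 reads in normal bone. A member had a median of 325.5 reads in a library, and 42 of the 528 member values came from under 100 reads. The rno- rows, which are catalogued rat miRNAs, are scaled by themselves, so that a value of 1 class is not on the scale of the other, and levels were compared between classes only as recovered reads. Among them, the red-cell markers miR-144, miR-451 and miR-486 held 19.2% to 33.1% of the rno- signal in hyperlipidemic and 7.77% to 20.2% in normal libraries. This is their summed share, and miR-486 by itself was highest in normal library 4. The leukocyte markers miR-142 and miR-223 held 14.8% to 20% in hyperlipidemic and 6.08% to 20.2% in normal libraries. For the mesenchymal markers miR-199a and miR-214 the shares were 2.49% to 5.58% in hyperlipidemic and 3.36% to 7.11% in normal libraries. Striated-muscle markers held 0.0203% to 0.483% in hyperlipidemic and 0.0429% to 0.344% in normal libraries. No row of these marker lists was at 0 in all libraries.

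Counted once, the members made up 85.5% ± 1.71 of the class in hyperlipidemic bone and 84.9% ± 1.47 of it in normal bone (SD, n = 4 each). With identical rows each counted, as the authors' scale does, they made up 96.5% ± 0.541 in hyperlipidemic and 96.6% ± 0.437 in normal bone (SD, n = 4 each). The 7 members of highest mean alone made up 55.4% ± 4.87 in hyperlipidemic and 51.5% ± 2.29 in normal bone (SD, n = 4 each). As the class is scaled to a fixed sum, a change in any of these few profiles moves the scaled value of all others.

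The highest mean was that of rno_novmiR_chr5_11378-5p, with 57944, 111077, 86069 and 71732 RPM in hyperlipidemic libraries 1 to 4 and 62170, 56435, 181523 and 115480 RPM in normal libraries 1 to 4. Normal libraries 3 and 4 had the 2 highest values. rno_novmiR_chr19_31006-3p, next in level, had 95053, 78635, 108336 and 93307 RPM in hyperlipidemic libraries and 98275, 125928, 46509 and 88323 RPM in normal libraries, with normal library 3 the lowest. rno_novmiR_chr11_22395-5p had 88731, 70849, 99373 and 85546 RPM in hyperlipidemic libraries and 84383, 105332, 21473 and 51418 RPM in normal libraries. Here normal libraries 3 and 4 were the lowest. rno_novmiR_chrX_32685-5p had 57970, 45817, 67681 and 51572 RPM in hyperlipidemic libraries and 75919, 98570, 43662 and 78767 RPM in normal libraries. The groups overlapped in each of these 4 members.

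The other 2 of the 6 highest members moved from library to library together with a catalogued miRNA. For this, whole reads were recovered from the values, and each member was set against each rno- miRNA by the ratio of their reads in the 8 libraries. The search was chosen after seeing the data and covered the 58 members and 203 rno- miRNAs with at least 50 reads in every library. Over these 11774 pairs, the highest ratio of a pair was a median of 5.7 times its lowest. In 2 pairs it was at most 1.2 times its lowest. Among the 20503 pairs of 2 rno- miRNAs, 1 pair was as steady. At the wider limit of 1.5 times the order was the other way. It was met by 8 of the 11774 pairs with a member and by 195 of the 20503 rno- pairs.

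The steadier pair was rno_novmiR_chr10_20246-5p with miR-378a-3p, a miRNA of fat and muscle metabolism that lies within the Ppargc1b gene in mouse and human. The member had 12245, 11437, 5298 and 9631 reads in hyperlipidemic libraries 1 to 4 and 8141, 4513, 4964 and 13078 reads in normal libraries 1 to 4. MiR-378a-3p had 15163, 13697, 6453 and 11545 reads in hyperlipidemic and 9627, 5484, 6358 and 16275 reads in normal libraries. Reads of the member per read of miR-378a-3p were 0.808, 0.835, 0.821 and 0.834 in hyperlipidemic and 0.846, 0.823, 0.781 and 0.804 in normal libraries, a 1.08-fold range. The rno- row closest after it was miR-378b, another member of the miR-378 family, with a 1.48-fold range. The mature sequence of miR-378a-3p is shown because it is the catalogued miRNA that this member followed. It is from RefSeq on GRCr8, at chr18:57128925-57128945 on the minus strand, 5′ to 3′ with the seed in capitals, which is not the build of the authors' files.
miR-378a-3p: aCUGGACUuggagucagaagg

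The other pair was rno_novmiR_chr16_27476-5p with miR-486, a miRNA of red-cell precursors and striated muscle. The member had 18738, 8561, 11892 and 9306 reads in hyperlipidemic libraries and 4459, 3064, 4606 and 10901 reads in normal libraries. MiR-486 had 41365, 18890, 24867 and 19731 reads in hyperlipidemic libraries and 9380, 7134, 9268 and 25347 reads in normal libraries. The ratio was 0.453, 0.453, 0.478 and 0.472 in hyperlipidemic and 0.475, 0.429, 0.497 and 0.430 in normal libraries, a 1.16-fold range. Since no counting rule is given, it is not known whether a read could count in both rows of such a pair. These ratios describe 8 libraries, and their points share the library and its depth.

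**Figure D1:**
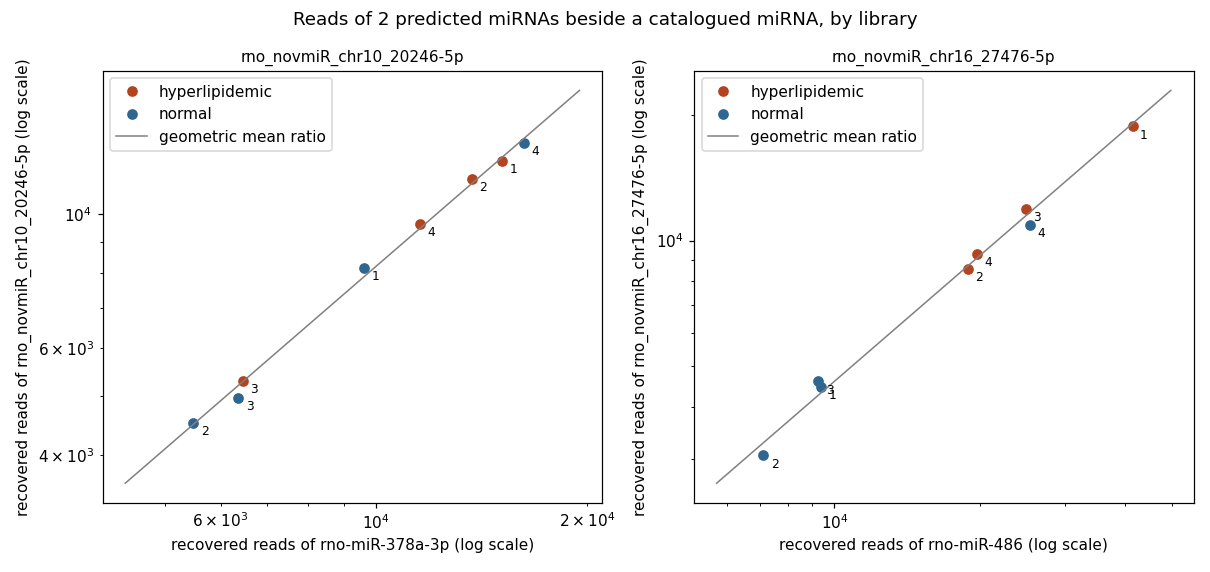
Recovered reads of a member (vertical, log scale) against those of the catalogued miRNA it followed (horizontal, log scale), with 1 point per library numbered by replicate and the line of the geometric mean ratio. The points of both groups lie along the line, with ratios of 0.781 to 0.846 on the left and 0.429 to 0.497 on the right.

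The folds of these pairs differed with the scale of the class. On the deposited scales the log2 fold of hyperlipidemic over normal was 0.76 (SE 0.40) for rno_novmiR_chr16_27476-5p and -0.14 (SE 0.39) for miR-486. It was -0.02 (SE 0.36) for rno_novmiR_chr10_20246-5p and -0.91 (SE 0.32) for miR-378a-3p. With the reads of each put over the reads behind both classes, the log2 fold was -0.07 (SE 0.37) for the first member and -0.09 (SE 0.38) for miR-486. It was -0.85 (SE 0.33) for the second member and -0.87 (SE 0.33) for miR-378a-3p.

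Other members were less close to any catalogued miRNA. 6 of the 58 had an rno- miRNA within a 1.5-fold range of ratios, the next being rno_novmiR_chr8_17224-5p with miR-363-3p (1.33-fold) and rno_novmiR_chr10_20245-3p with miR-674-3p (1.39-fold). Of the 1653 pairs of 2 members, 27 were within 1.5-fold and 2 within 1.2-fold. In 1 of these, rno_novmiR_chr12_22812-5p stood at 1.18 to 1.30 times rno_novmiR_chr17_28094-5p in every library. In the other, rno_novmiR_chr4_9800-5p stood at 14.1 to 16.3 times rno_novmiR_chrX_32024-5p. Both pairs carry names of different chromosomes. In contrast, rno_novmiR_chr10_20246-5p and rno_novmiR_chr10_20245-3p, with consecutive numbers, had a ratio of 6.49 to 11.5, and rno_novmiR_chr7_15398-3p stood at 2.64 to 5.07 times rno_novmiR_chr7_15397-5p.

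By strand, 44 members (66.7%) were 5p and 22 (33.3%) were 3p, against 158 5p and 160 3p among all predicted profiles. The table holds the other arm of the same hairpin for 20 members and no row for that of the other 46. Of these other arms, 16 were not members and so lay below their member by the rule, and the remaining 4 belong to 2 hairpins with both arms among the members. The ratio of a member's mean to that of its other arm had a median of 360. For example, rno_novmiR_chr17_28635-3p averaged 10381 RPM over the 8 libraries and its 5p arm 3.13 RPM. A hairpin with more even arms was rno_novmiR_chr7_14426, whose 3p arm stood at 2.59, 2.46, 3.34 and 3.33 times its 5p arm in hyperlipidemic and at 2.79, 3.30, 1.74 and 2.14 times in normal libraries.

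The names carry running numbers that rise with the chromosomes, so that close numbers on 1 chromosome mark predictions listed near each other. Members came from 18 chromosomes, with 10 on chromosome 17, 8 on chromosome 10 and 6 each on chromosomes 1, 6 and 7. On chromosome 17, 10 of 27 predicted profiles were members, against 2 of 26 on chromosome 2. Identical rows also lay close by number, except for those of rno_novmiR_chr12_22754-5p, which recur under chromosome 14. Both arms of rno_novmiR_chr7_14426 recur under the numbers 14432 and 14444. On chromosome 17 a run of close numbers from rno_novmiR_chr17_29411 on, picked out after seeing the values, holds 16 rows of 7 profiles, and 8 of these rows, of 4 profiles, were members.

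None of the 66 members differed past the threshold, an adjusted p under 0.05, and their lowest adjusted p was 0.0584 (limma, two-sided, on log2 of RPM plus 0.475, Benjamini-Hochberg over 696 rows tested). All members passed the filter on low values. Over all rows tested 5 passed (0.718%). At an unadjusted p under 0.05 there were 17 members (25.8%), against 17.8% of all rows. Of these 6 were higher (9.09%, against 6.9% of all rows) and 11 lower (16.7%, against 10.9%) in hyperlipidemic bone. The split depends on the scale, since median-of-ratios factors within each class gave 12 higher and 9 lower members and rescaling without the 3 highest profiles gave 10 and 11. For those fits the split over all rows was not counted. The groups did not overlap in 14 members (21.2%, against 12.6% of all rows tested), with 4 higher (6.06%, against 3.59%) and 10 lower (15.2%, against 9.05%). The 4 higher members averaged 568, 699, 306 and 765 RPM in normal libraries, below the minimum of the rule. Among the lower, rno_novmiR_chr6_12739-5p, rno_novmiR_chr19_30799-5p, rno_novmiR_chr7_15397-5p and rno_novmiR_chr3_7742-3p averaged 523, 845, 992 and 915 RPM in hyperlipidemic libraries. These members passed the rule only through their high group, so the shares are not a test.

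On the scale of the class, the log2 folds of the members ran from -1.48 to 5.65 with a median of -0.09, against -0.10 over all rows tested. They were above 0 in 28 members, and in 44.8% of all rows. Other predicted rows tested, 225 in number, had a median of 0.31. Median-of-ratios factors moved the median over all rows to 0.11 and that of the members to 0.04. The coefficient of variation of a member was a median of 23.4% over hyperlipidemic and 33.4% over normal libraries, and counting error alone gives medians of 4.87% and 5.91%. It was larger among the normal libraries for 44 of the 66.

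**Figure D2:**
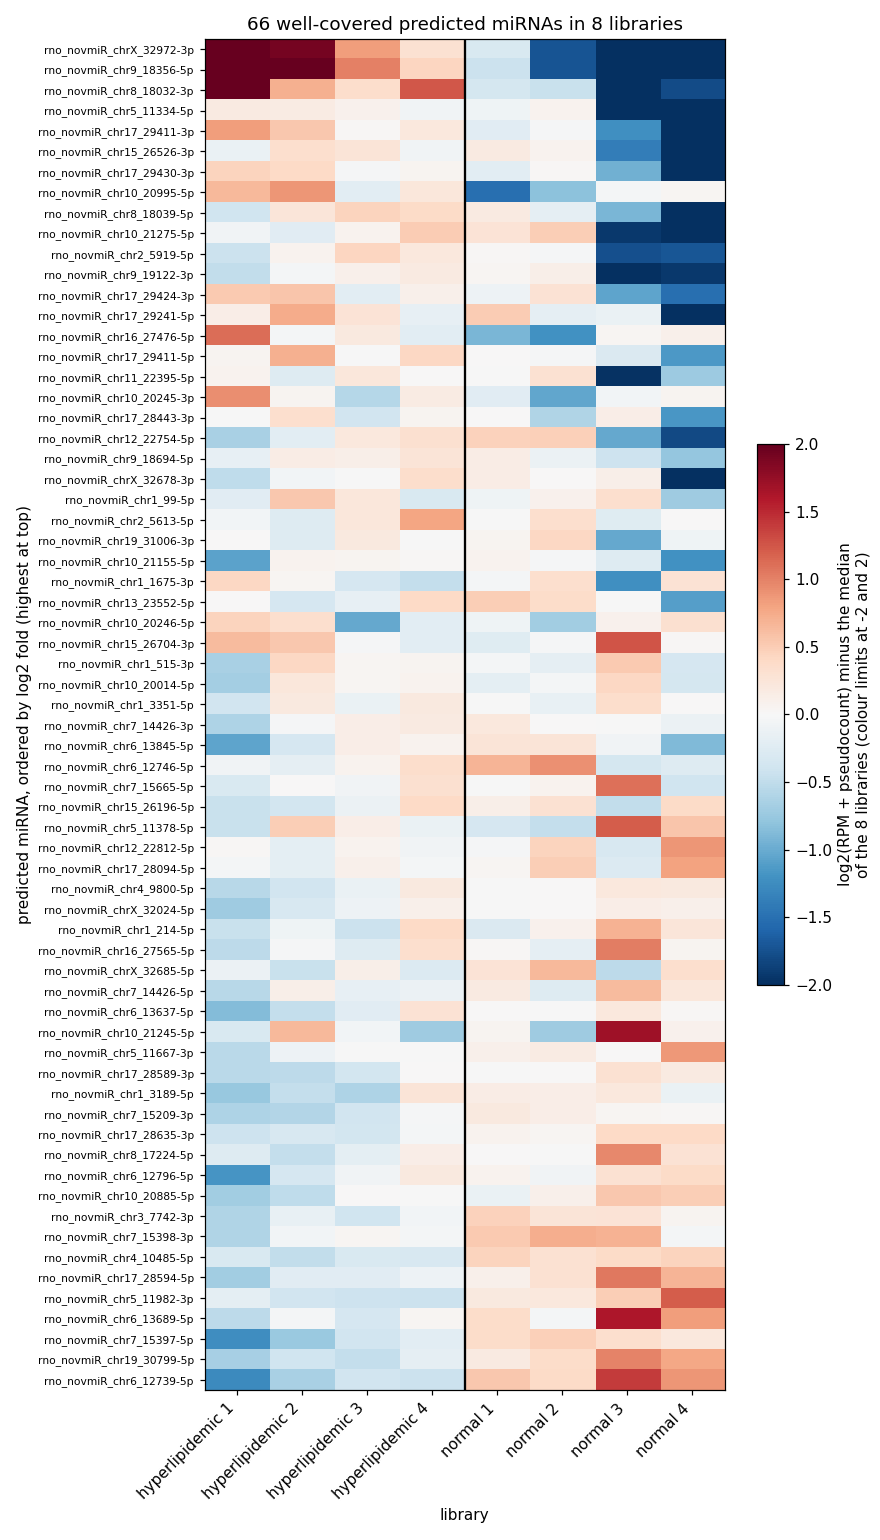
Colour shows log2(RPM + 0.475) of each member minus its median over the 8 libraries, for libraries (columns, hyperlipidemic left of the line) and the 66 members (rows, highest log2 fold at the top). Members at the top are high in hyperlipidemic libraries or low in normal libraries 3 and 4, and those at the bottom are low in hyperlipidemic libraries.

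The clearest lower values in hyperlipidemic bone were those of 6 members without overlap between the groups. rno_novmiR_chr6_12739-5p, the member of lowest mean, had 338, 521, 628 and 604 RPM in hyperlipidemic libraries 1 to 4 and 1182, 1062, 2164 and 1514 RPM in normal libraries 1 to 4. Its log2 fold was -1.48 (SE 0.31, limma adjusted p = 0.0584), and over the alternatives tried the adjusted p ran from 0.0416 to 0.274. rno_novmiR_chr4_10485-5p had 1827, 1598, 1820 and 1805 RPM in hyperlipidemic libraries and 3072, 2771, 2930 and 3072 RPM in normal libraries. It was the steadiest member in both groups, with means of 1763 ± 110 and 2961 ± 144 RPM (SD, n = 4 each) and a log2 fold of -0.75 (SE 0.18, limma adjusted p = 0.0836). Without any 1 of the libraries this fold stayed between -0.78 and -0.70.

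rno_novmiR_chr19_30799-5p had 710, 855, 816 and 999.6 RPM in hyperlipidemic libraries and 1281, 1454, 2247 and 1942 RPM in normal libraries (log2 fold -1.01, SE 0.25, limma adjusted p = 0.0887). Normal libraries 3 and 4 were its highest. rno_novmiR_chr17_28594-5p followed it, at 13.4 to 17.1 times its value in every library. This member had 10115, 14033, 13925 and 15265 RPM in hyperlipidemic libraries and 17520, 20117, 34007 and 26064 RPM in normal libraries (log2 fold -0.84, SE 0.26, limma adjusted p = 0.153). The values of the 2 members thus moved together over the libraries. The log2 fold of rno_novmiR_chr17_28594-5p was -0.29 under quantile normalization (limma adjusted p = 0.559) and -0.51 without normal libraries 3 and 4.

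rno_novmiR_chr7_15397-5p had 632, 889, 1148 and 1298 RPM in hyperlipidemic libraries and 1935, 2070, 1881 and 1721 RPM in normal libraries (log2 fold -0.99, SE 0.26, limma adjusted p = 0.106). rno_novmiR_chr7_15398-3p, with the next number, had 3092, 4504, 4788 and 4568 RPM in hyperlipidemic libraries and 6727, 7771, 7557 and 4542 RPM in normal libraries. Normal library 4 overlapped the hyperlipidemic range, and the log2 fold was -0.64 (SE 0.25, limma adjusted p = 0.239). rno_novmiR_chr5_11982-3p had 4936, 4342, 4240 and 4221 RPM in hyperlipidemic libraries and 6503, 6571, 7990 and 13050 RPM in normal libraries (log2 fold -0.88, SE 0.26, limma adjusted p = 0.129). Normal library 4 was far above the others, and without it the log2 fold was -0.66, or -0.56 without normal libraries 3 and 4.

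Smaller differences in the same direction, all with an unadjusted p under 0.05 and none past the threshold, came from 4 more members. rno_novmiR_chr17_28635-3p had 7751, 8333, 8067 and 10059 RPM in hyperlipidemic and 10865, 10690, 13683 and 13604 RPM in normal libraries (log2 fold -0.51, SE 0.20, limma adjusted p = 0.235). rno_novmiR_chr3_7742-3p had 736, 1008, 845 and 1069 RPM in hyperlipidemic and 1541, 1338, 1348 and 1160 RPM in normal libraries (log2 fold -0.57, SE 0.21, limma adjusted p = 0.231). In both of them every hyperlipidemic library lay below every normal one. The same held for rno_novmiR_chr7_15209-3p, with 1299, 1325, 1524 and 1965 RPM in hyperlipidemic and 2275, 2187, 2047 and 2009 RPM in normal libraries (log2 fold -0.50, SE 0.21, limma adjusted p = 0.258). rno_novmiR_chr6_13689-5p had 546, 761, 621 and 798 RPM in hyperlipidemic and 1003, 764, 2397 and 1396 RPM in normal libraries (log2 fold -0.91, SE 0.35, limma adjusted p = 0.237). Its groups overlapped, and without normal library 3, its highest, the log2 fold was -0.60, and without normal libraries 3 and 4 it was -0.38. The last member without overlap, rno_novmiR_chr5_11667-3p, was at a log2 fold of -0.45 with an unadjusted p above 0.05.

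Among higher values in hyperlipidemic bone, 3 members stood out by size, and in all of them the groups did not overlap. All 3 reached the minimum of the rule only through their hyperlipidemic values. rno_novmiR_chrX_32972-3p had 7941, 7111, 3373 and 2333 RPM in hyperlipidemic libraries 1 to 4 and 1532, 573 and 166 RPM in normal libraries 1 to 3, and it was listed at 0 in normal library 4. A count of 0 allows up to 22.2 RPM there (3 reads, counting error only). The log2 fold of 5.65 (SE 2.15, limma adjusted p = 0.233) depends on the pseudocount and on that library. With a pseudocount of 1 predicted read it was 4.59, without normal library 4 it was 3.12, and without normal libraries 3 and 4 it was 2.29.

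rno_novmiR_chr9_18356-5p had 4997, 4504, 2181 and 1465 RPM in hyperlipidemic libraries and 806, 329, 83.2 and 7.39 RPM in normal libraries, the last being 1 read. Its log2 fold was 4.66 (SE 1.24, limma adjusted p = 0.108), against 2.50 without normal libraries 3 and 4. Both of these members were highest in hyperlipidemic libraries 1 and 2. rno_novmiR_chr8_18032-3p had 6893, 2376, 1856 and 3429 RPM in hyperlipidemic libraries and 1138, 1072, 166 and 421 RPM in normal libraries (log2 fold 2.56, SE 0.65, limma adjusted p = 0.0993). Without normal libraries 3 and 4 it was at 1.53, and every hyperlipidemic library lay above every normal one.

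**Figure D3:**
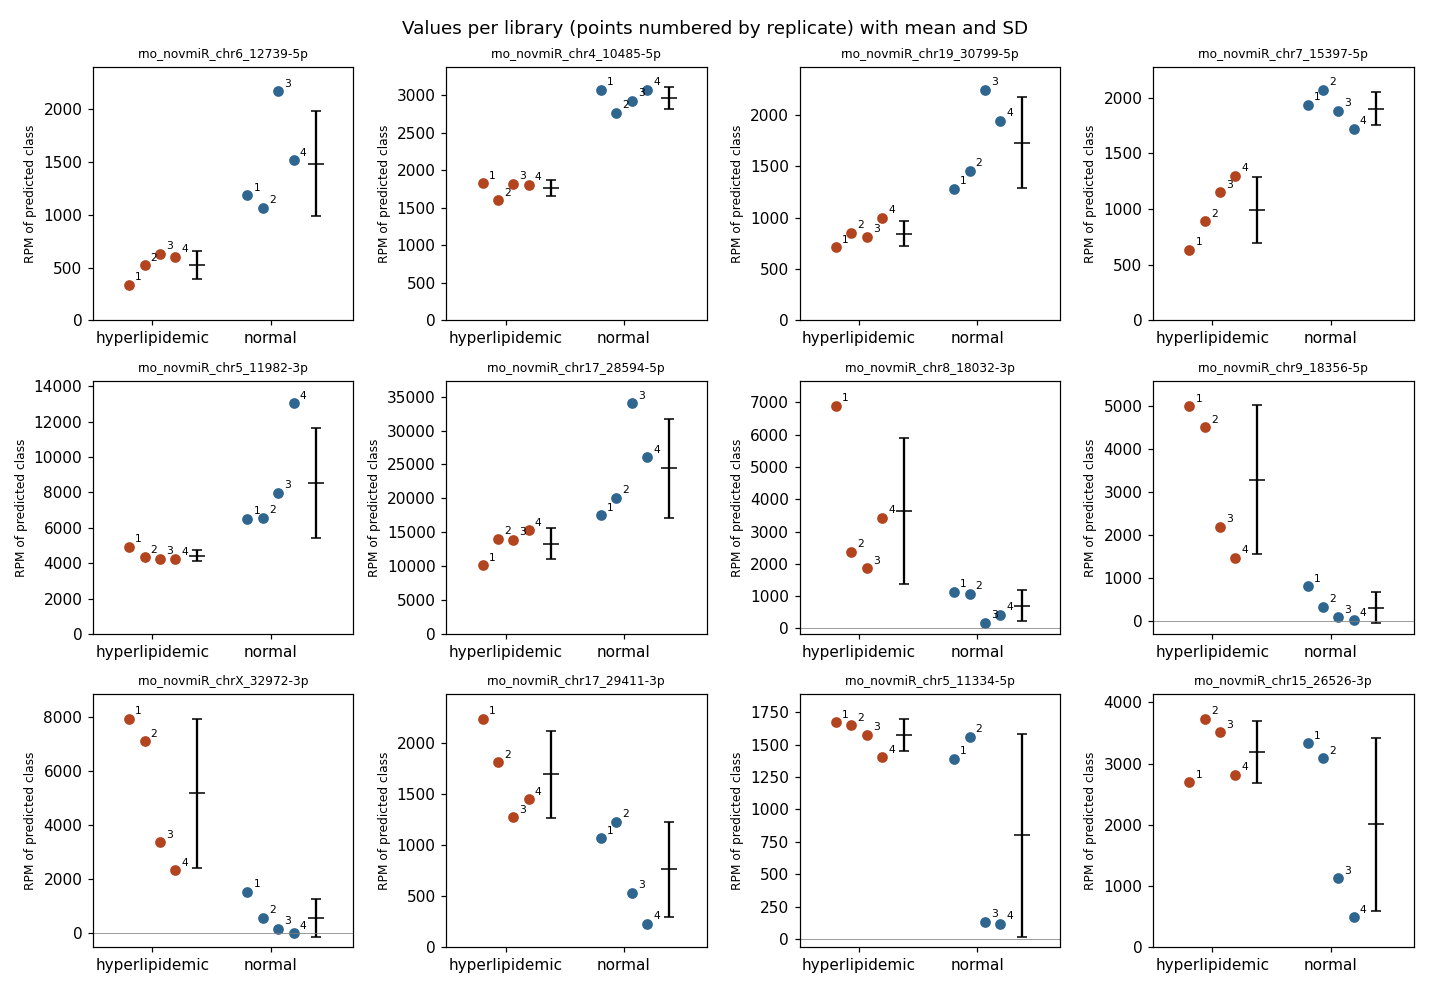
Values of 12 members in RPM of the predicted class, with 1 point per library numbered by replicate, hyperlipidemic left of normal, and the mean with its SD in black beside each group. The first 6 panels hold lower and the next 4 higher values in hyperlipidemic libraries without overlap, and in the last 2 panels normal libraries 1 and 2 lie within or near the hyperlipidemic range while normal libraries 3 and 4 lie far below it (rno_novmiR_chr5_11334-5p at 133 and 118 RPM).

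The close-numbered members on chromosome 17 were all at log2 folds above 0 on the scale of the class. rno_novmiR_chr17_29411-3p had 2234, 1812, 1271 and 1451 RPM in hyperlipidemic libraries and 1066, 1231, 533 and 229 RPM in normal libraries (log2 fold 1.38, SE 0.50, limma adjusted p = 0.209), without overlap. Its 5p arm had 1767, 2769, 1683 and 2256 RPM in hyperlipidemic libraries and 1702, 1656, 1382 and 761 RPM in normal libraries, with overlap (log2 fold 0.66, SE 0.31, limma adjusted p = 0.293). Thus the 5p arm was at 0.791, 1.53, 1.32 and 1.56 times the 3p arm in hyperlipidemic and at 1.60, 1.34, 2.59 and 3.32 times in normal libraries. The ratio was highest in normal libraries 3 and 4. rno_novmiR_chr17_29430-3p, whose values recur once, was at a log2 fold of 1.00 (SE 0.42, limma adjusted p = 0.258), and rno_novmiR_chr17_29424-3p, which stands for 4 rows, at 0.84 (SE 0.41, limma adjusted p = 0.296). With reads put over those behind both classes, the 4 log2 folds, in the order named, were 0.55, -0.17, 0.17 and 0.01. Without normal libraries 3 and 4, on the scale of the class, they were 0.53, 0.31, 0.31 and 0.16.

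Normal libraries 3 and 4 stood apart from the other 6 in many members, and in both directions. They were the 2 lowest libraries in 17 members and the 2 highest in 13. The same was not counted over all rows. They were not alone in this, as hyperlipidemic library 1 was the lowest library in 25 members and the highest in 10. Normal library 4 was the lowest in 19 and normal library 3 in 11. Members lowest in hyperlipidemic library 1 include rno_novmiR_chr6_12739-5p, rno_novmiR_chr19_30799-5p, rno_novmiR_chr7_15397-5p and rno_novmiR_chr17_28594-5p. rno_novmiR_chr5_11334-5p had 1671, 1649, 1574 and 1402 RPM in hyperlipidemic libraries and 1388, 1561, 133 and 118 RPM in normal libraries. Its log2 fold of 1.87 (SE 0.85, limma adjusted p = 0.284) was 0.09 without normal libraries 3 and 4. rno_novmiR_chr10_21275-5p was alike, with 3403, 3051, 3720 and 5047 RPM in hyperlipidemic libraries and 4290, 4979, 932 and 709 RPM in normal libraries. So was rno_novmiR_chr9_19122-3p, with 8686, 11922, 13116 and 13821 RPM in hyperlipidemic libraries and 12504, 13270, 2913 and 3205 RPM in normal libraries, which stood at 2.39 to 3.31 times rno_novmiR_chr2_5919-5p in every library. In these members normal libraries 1 and 2 lay within the range of the hyperlipidemic libraries or close to it, and normal libraries 3 and 4 lay below all others.

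Over the 17 members lowest in these libraries, 16 log2 folds were above 0 with a median of 0.95, and without the 2 libraries 11 were above 0 with a median of 0.09. Over the 13 members highest in them all log2 folds were below 0 (median -0.52), and 12 without them (median -0.35). The choice of these members fixes the sign in part. The red-cell markers held 8.95% and 7.77% of the rno- signal in normal libraries 3 and 4 and the leukocyte markers 9.34% and 6.08%, against at least 17.9% and 14.8% in each of the other 6. Of the red-cell markers, miR-486 by itself was not low there. It had 5110 to 9407 RPM of the rno- class in the other 6 and 9354 and 16264 RPM in normal libraries 3 and 4. The mesenchymal markers held 6.51% and 7.11% there, the highest shares of the 8. The cartilage markers miR-140 and miR-455 were also highest there, at 0.776% and 0.566%, against 0.293% to 0.533% in the other 6. Other lists overlapped. The endothelial marker miR-126a held 1.86% and 1.65%, against 0.912% to 1.77%. The lymphocyte markers miR-150 and miR-342 held 0.252% and 0.334%, against 0.326% to 0.468%. The part of all these markers in the results was not tested. Without both libraries no member passed, and 15 had an unadjusted p under 0.05, of which 5 were higher and 10 lower. How many of all rows met this p in that fit was not counted.

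The scale of the class bears on the direction of the members as a group. The predicted rows held 2.34%, 3.58%, 4.98% and 4.14% of the reads behind both classes in hyperlipidemic libraries 1 to 4 and 6%, 6.32%, 5.72% and 7.99% in normal libraries 1 to 4. Each hyperlipidemic share was below each normal one. The reads behind the rno- scale were 2643499 to 4809904 in hyperlipidemic and 990801 to 1748968 in normal libraries, without overlap. As the signal was read here, they include reads that fall in no rno- row. The reads behind the predicted scale, 115473 to 144051 in hyperlipidemic and 60075 to 135400 in normal libraries, overlapped. Both are counts of sequenced reads, which depend on depth, so neither gives an amount of RNA in bone. Going from the class to the joint scale moved the log2 fold of a member by a median of -0.83. The members themselves, counted once, held 3.21% ± 0.911 and 5.54% ± 0.964 of the reads behind both classes (SD, n = 4 each). Put over these reads, 53 of 66 members had a log2 fold below 0, with a median of -0.92, against 38 of 66 and -0.09 within the class. The median over all rows tested was then -0.30.

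On this joint scale 6 members passed (9.09%, against 1.72% of all rows). All 6 were lower in hyperlipidemic bone (1.58% of all rows), and none was higher (0.144% of all rows). These were rno_novmiR_chr6_12739-5p, rno_novmiR_chr19_30799-5p, rno_novmiR_chr7_15397-5p, rno_novmiR_chr5_11982-3p, rno_novmiR_chr17_28594-5p and rno_novmiR_chr4_10485-5p, with log2 folds of -2.28, -1.82, -1.80, -1.71, -1.67 and -1.57 and limma adjusted p-values of 0.0425 to 0.0436. rno_novmiR_chr4_10485-5p had 42.8, 57.2, 90.6 and 74.7 reads per 1000000 of both classes in hyperlipidemic and 184, 175, 167 and 246 in normal libraries. The groups did not overlap on this scale in 27 members that were lower (40.9%, against 14.4% of all rows) and in 3 that were higher (against 2.44%). These calls lay near the threshold and were lost in most fits that left out 1 library. No member passed when any 1 of hyperlipidemic libraries 1, 2 and 4 or normal libraries 2, 3 and 4 was left out. Without hyperlipidemic library 3, 12 members passed, 11 of them lower, and 27 of all rows. Without normal library 1, 9 members passed, 7 of them lower, and 25 of all rows. The log2 folds of the 6 members named above stayed below 0 in each fit that left out 1 library. Reads beyond those behind the scales of both classes are not in the data used here, so that a larger rno- content and a smaller predicted content cannot be told apart. Identical rows are each counted in the reads behind the predicted class.

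**Figure D4:**
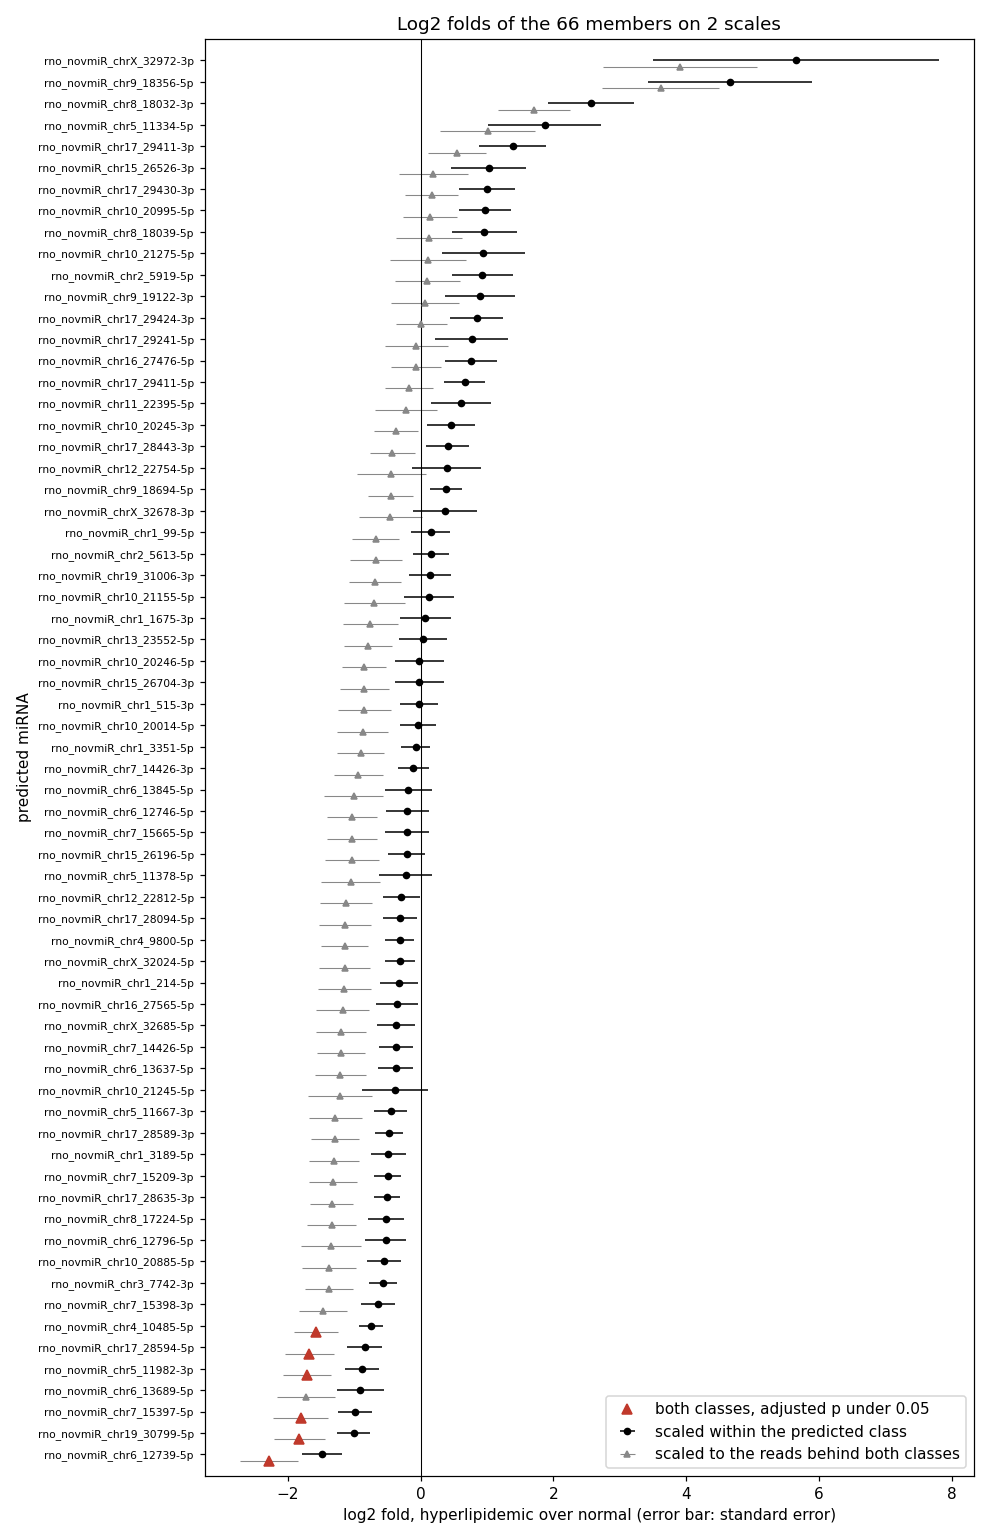
Log2 fold of hyperlipidemic over normal with its standard error (horizontal) for the 66 members (vertical), scaled within the predicted class (circles) and to the reads behind both classes (triangles, in red where the adjusted p is under 0.05). Each triangle lies to the left of its circle, 53 of 66 of them below 0, and the 6 red ones run from -2.28 to -1.57.

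The authors' deposited table calls 9 members up (13.6%, against 14.5% of all rows) and 2 down (3.03%, against 6.37%), and 55 are listed there as unchanged. The calls in the authors' deposited table follow the size of the log2 fold, with a threshold at 1, and 7 of the 11 have an unadjusted p of 0.05 or above there. The adjusted p of the authors' deposited table is below 0.05 for 3 of all 974 rows (0.308%). Among these is 1 member, rno_novmiR_chr4_10485-5p (0.0352), whose log2 fold of -0.76 leaves it without a call in the authors' deposited table. The 2 called down there are rno_novmiR_chr6_12739-5p and rno_novmiR_chr7_15397-5p. Of the 9 called up there, 8 had normal libraries 3 and 4 as their 2 lowest. The median log2 fold of the 9 in the limma fit was 1.38, against 0.53 without these libraries. The exception was rno_novmiR_chr10_20995-5p, with 4269, 4983, 2340 and 3172 RPM in hyperlipidemic and 949, 1539, 2630 and 2792 RPM in normal libraries, which overlapped (log2 fold 0.97, SE 0.39, limma adjusted p = 0.248). Its log2 fold was 1.55 without normal libraries 3 and 4 and 0.14 on the joint scale. rno_novmiR_chr15_26526-3p and rno_novmiR_chr8_18039-5p, also called up there, were at 1.03 (SE 0.56) and 0.96 (SE 0.49) in the limma fit and at -0.02 and 0.17 without normal libraries 3 and 4.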

How the data were processed

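Small RNA of rat femur was sequenced in 4 hyperlipidemic and 4 normal libraries. Per the labels' protocols, libraries with adapters on both ends were size-selected at 140 to 160 bp on a gel and read from 1 end for 50 bases. Per the submitters' processing notes, bcl2fastq 1.8.4 and the build Rnor_6.0 were used. No source used here gives the aligner, the hairpin predictor or the counting rule. The deposited signal is named FPKM by the authors, but its predicted rows sum to about 1000000 in each library. Low values are whole multiples of 1 step per class, within 0.1 read for all values up to 20 reads. The signal was therefore read as reads per 1000000 within each class. The rno- rows sum to only 854151 to 909193 in a library. On this reading, reads in none of these rows also stand behind the rno- scale and the joint scale. The authors also deposited a ratio (fold), its log2, a p-value and an adjusted p-value, and a call, per the file headers, and their test is not given.

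The members, tests and lists were chosen with earlier results of these data known. Groups came from the labels. The test was limma 3.58.1 in R 4.3.3 with a variance trend, on log2(RPM + 0.475), the median smallest value above 0, for rows above 0 in at least 4 libraries with a mean of at least 2.375 RPM. The threshold was an adjusted p under 0.05. Reads were recovered as value over step. On the joint scale the pseudocount was 0.448 reads per 1000000. Up to 12 members of smallest p under 0.05, the 6 of highest mean, those at 0 in a library, up to 8 called by the authors, and those with consecutive numbers or both arms were named by rule, 26 in all, and the others after their values were seen.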

Additional observations from a re-analysis of the deposited data

Results flagged for a closer look

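In 132 groups of 4 values (66 members in each of both groups), 9 held a library set apart from the others of its group by Dixon's criterion for its gap to the nearest, where chance gives about 1 in 20, or 6.6. Of these, 3 were hyperlipidemic library 1, which was highest for rno_novmiR_chr5_11982-3p (4936 RPM, others 4221 to 4342) and lowest for rno_novmiR_chr7_15398-3p (3092 RPM, others 4504 to 4788) and rno_novmiR_chr10_21155-5p (649.5 RPM, others 1395 to 1427). Hyperlipidemic library 2 was lowest for rno_novmiR_chr4_10485-5p (1598 RPM, others 1805 to 1827). Normal library 3 was highest for rno_novmiR_chr6_13637-5p (10037 RPM, others 8631 to 8826), rno_novmiR_chr16_27565-5p (3645 RPM, others 1582 to 1861) and rno_novmiR_chr15_26704-3p (2747 RPM, others 976 to 1167). Normal library 4 was highest for rno_novmiR_chr5_11667-3p (53095 RPM, others 29413 to 32835) and lowest for rno_novmiR_chrX_32678-3p (413.6 RPM, others 1677 to 1845).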

How the results depend on the processing

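Of the 696 rows tested, 5 passed in the reported fit. The count fell to 0 with a pseudocount of 1 read of the class, with only rows of a mean of at least 1000 (159 rows), with quantile normalization, with voom and with the predicted profiles alone, and it was 8 after rescaling without the 3 highest profiles, 12 with a pseudocount 10 times as large and 12 on the joint scale. Among the members, 1 passed with the larger pseudocount (rno_novmiR_chr6_12739-5p, limma adjusted p = 0.0416) and 6 on the joint scale. An unadjusted p under 0.05 was met by 41 members on the joint scale, 3 higher and 38 lower, against 17 as reported. The share of all rows at this p was counted only in the reported fit, so the 41 are not a result about the members. The median log2 fold of all 66 members was -0.92 on the joint scale, against -0.30 over all rows tested. On the scale of the class, leaving out 1 library at a time left 8 (without hyperlipidemic library 1) to 20 members with an unadjusted p under 0.05. It left 0 to 12 rows past the threshold, and no member passed.

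The hyperlipidemic and normal shares of the class were 87.2% and 86.5% with a minimum mean of 500, 82.1% and 81.5% with 2000, 80.2% and 79.8% after rescaling, 96.5% and 96.6% with identical rows counted, and 3.21% and 5.54% of the reads behind both classes. Of 440 log2 folds (22 members under 20 alternatives), 2 turned, rno_novmiR_chr15_26526-3p to -0.02 without normal libraries 3 and 4 and rno_novmiR_chr17_29411-5p to -0.17 on the joint scale. The 22 were mostly chosen for an unadjusted p under 0.05 or a call by the authors, so they do not stand for all members. Over all 66, log2 folds above 0 fell from 28 to 13 on the joint scale. There rno_novmiR_chr16_27476-5p, not among the 22, turned from 0.76 to -0.07. The cause was not tested. Leaving out normal libraries 3 and 4, and each library on the joint scale, was chosen after seeing the data.

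With the replicate number as a block, 0 rows and 0 members passed and 14 members had an unadjusted p under 0.05 (7 higher, 7 lower). Rows of any kind at this p were not counted in the block fit. Whether the numbers pair the libraries is not settled by so few correlations. Deviations of same-numbered libraries correlated at 0.19, -0.08, -0.02 and 0.15, and those of differently numbered ones at -0.16 to 0.08. The planned edgeR and DESeq2 fits were not run, because reads recovered per class are not a deposited count table. Depth limits the members of few reads most, and the 60075 reads behind normal library 3 give the coarsest values, 16.6 RPM a read.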
